A study of Mus musculus with 6 samples.

Results

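Yap1, Wwtr1, Tead1, Ctgf, Cyr61, Thbs1, Ajuba, Amotl2 and Lats2 encode the Hippo pathway effectors YAP and TAZ, a DNA-binding partner, a kinase that restrains them and genes that they activate. These 9 genes were chosen by name as a pathway, with earlier results of these data known. All 9 were found by Ensembl ID among the 14338 genes that could be compared across the libraries of mouse bladder mucosa. The samples were C57BL/6 wild-type mice of 8 weeks. Healthy mice were compared with mice injured by cyclophosphamide (CPP), a drug whose metabolites in the urine damage the urothelium. The acute group was collected 48 hours after CPP, and the chronic group on day 11, after 4 rounds of CPP. Each group had 2 libraries, made with a droplet-based 3' assay that counts captured mRNA molecules by unique molecular identifiers (UMIs). The mucosal layer was torn from the bladder and dissociated with collagenase, and the study used more mice than libraries in each condition, so that single animals could not be followed.

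In the Hippo pathway, a cascade of kinases that ends in LATS1 and LATS2 phosphorylates YAP (Yap1) and its paralogue TAZ (Wwtr1), which then stay in the cytoplasm or are degraded. When the cascade is off, for instance in cells that spread on a stiff matrix, YAP and TAZ enter the nucleus, bind TEAD factors and switch on genes for matricellular proteins and for regulators of the pathway itself. The activity of YAP and TAZ is set largely by where the proteins lie in the cell, which mRNA counts do not show. Some of the targets, Cyr61 and Ctgf among them, are also immediate-early genes, which tissue dissociation can induce.

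The RefSeq promoter set used (GRCm38.p6) held promoters for 6 of the 9 genes. In the 250 bases before the start, the word GGAATG, which TEAD factors recognise, was found on either strand in 5 of the 6. Of all 27025 genes in this set, 14.4% held it in the same window. The promoters of 3 of the genes that differed between cell layers below are shown, 5′ to 3′ on the gene's strand, with GGAATG or its reverse complement CATTCC in capitals. Those of Cyr61 (chr3:145649986-145650235, minus strand) and Ajuba (chr14:54577662-54577911, minus strand) end at the RefSeq start, as does that of Amotl2 (chr9:102717554-102717803, plus strand).
Cyr61: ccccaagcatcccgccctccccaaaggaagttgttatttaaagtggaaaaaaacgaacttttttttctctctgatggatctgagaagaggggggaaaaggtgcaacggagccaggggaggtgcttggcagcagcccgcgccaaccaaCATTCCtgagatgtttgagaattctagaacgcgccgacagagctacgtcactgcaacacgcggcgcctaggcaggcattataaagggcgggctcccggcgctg
Ajuba: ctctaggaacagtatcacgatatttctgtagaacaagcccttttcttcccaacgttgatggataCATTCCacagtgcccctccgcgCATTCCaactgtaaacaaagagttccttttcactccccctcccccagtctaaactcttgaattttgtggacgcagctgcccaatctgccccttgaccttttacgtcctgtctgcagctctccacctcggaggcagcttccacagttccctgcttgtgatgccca
Amotl2: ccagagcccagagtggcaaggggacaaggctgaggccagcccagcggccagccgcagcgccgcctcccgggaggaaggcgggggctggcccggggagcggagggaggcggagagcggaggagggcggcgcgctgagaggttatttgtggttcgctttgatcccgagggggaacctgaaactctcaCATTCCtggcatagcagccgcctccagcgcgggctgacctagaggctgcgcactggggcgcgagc

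The match in Cyr61 begins 103 bases before the start and that in Amotl2 65 bases before it. Ajuba has 2 matches, at 186 and 164 bases. Yap1 has 1 match at 141 bases. The windows of the 2 start sites of Wwtr1 overlap and share 1 match, which lies 136 bases before the first start and 170 before the second. Neither of the 2 start sites of Lats2 has one in its window. Both Lats2 windows (chr14:57746124-57746373 and chr14:57734419-57734668) lie inside the GENCODE locus of this minus-strand gene (chr14:57689662-57758388). The 5′ end of that locus was not searched. The Amotl2 window likewise lies inside the GENCODE locus of Amotl2 (chr9:102716672-102733418). The AP-1 word TGANTCA, found in 6.75% of all promoters, and the CArG box of serum response factor, found in 1.47%, were in none of the 6 genes' windows. These matches describe letters only. For Ctgf, Thbs1 and Tead1 the search by symbol and synonym found no promoter in the set used, which does not mean that RefSeq lacks these genes.

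The tables held 54604109 to 111985678 UMIs per library, with a median of 5530 to 9138 per cell, and 5348 to 13864 cells per library passed the filters of over 500 genes and under 10% mitochondrial UMIs. Between 36 and 229 cell barcodes were shared by any pair of libraries, 0.67% to 2.28% of the smaller one. Cells were clustered without the 9 genes or other Hippo genes and named from markers, into urothelial, fibroblast-like, myofibroblast-like, macrophage-like, endothelial-like, NK-like and mural-like cells. One fibroblast-like sub-cluster was led by Has1, Gm26870 and Cdkn1a and 1 myofibroblast-like sub-cluster by Cxcl10, Ereg and Spon1, with stress and immune genes (Fos and Klf4, Cxcl10 and Il6) among the 10 leading genes of each, and 645 of the clustered cells in the myofibroblast-like class were led by the smooth muscle genes Actg2, Tagln and Acta2. Urothelial cells were divided by layer. The basal layer holds cells whose basal score exceeded their luminal score (2503 non-cycling cells). The basal score used the keratins Krt5, Krt14 and Krt15 together with Trp63, Itga6, Itgb4 and Col17a1. The superficial layer holds sub-clusters rich in Krt20 and uroplakins (2549), and the intermediate layer holds the rest (28129). The basal class is a range of a score and not a separate cluster. Of 37184 urothelial cells 3373 were on its basal side, and 21.7% of these lay within 0.1 of the boundary. The median summed level of the basal markers was 6166 CPM (UMIs scaled to a common total) in basal, 3233 in intermediate and 444 in superficial cells.

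Levels below are CPM in the summed UMIs of a class, given in the order healthy 1, healthy 2, acute 1, acute 2, chronic 1 and chronic 2. Such a sum cannot tell fewer expressing cells from less mRNA per cell. The test was the quasi-likelihood test of edgeR, applied to pairs of classes within libraries, and its p-values were adjusted by the Benjamini-Hochberg method over all genes tested, with a threshold of 0.05. The study calls the libraries of a condition biological replicates, but the labels do not tie them to animals. Between classes, p-values measure only how the difference within a library varies over libraries. Between conditions they measure only the spread between libraries. The classes were also made from the cells they describe, although not from these genes.

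The effectors were expressed in every urothelial and mesenchymal class. Yap1 (GRCm38 chr9:7931999-8004596) was on average highest, of the classes present in all libraries, in intermediate cells, at 109, 71.3, 103, 65.2, 52.5 and 92.6 CPM, and in basal cells, at 121, 80.7, 97.8, 63.1, 21.5 and 108 CPM. These layers overlapped, and neither was higher in more than 3 of the 6 libraries. The low basal value of chronic 1 came from 66 cells. Macrophages, which served as cells of another lineage, had at most 26.4 CPM, below every fibroblast value (35.4 to 97.8 CPM).

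Wwtr1 (chr3:57455649-57575910) varied little between these layers, from 60.5 to 80.5 CPM in intermediate and 55.3 to 85.7 CPM in superficial cells. Its highest levels were in endothelial cells, at 274, 237, 217, 236 and 140 CPM in the 5 libraries with at least 20 such cells (healthy 2 had 14). These values exceeded those of every other class in each of the 5 libraries. Tead1 (chr7:112679318-112906807), which encodes a TEAD factor, was on average lowest in macrophages and ranged over libraries from 67.4 to 125 CPM in superficial and 55.0 to 94.7 CPM in intermediate cells.

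**Figure D1:**
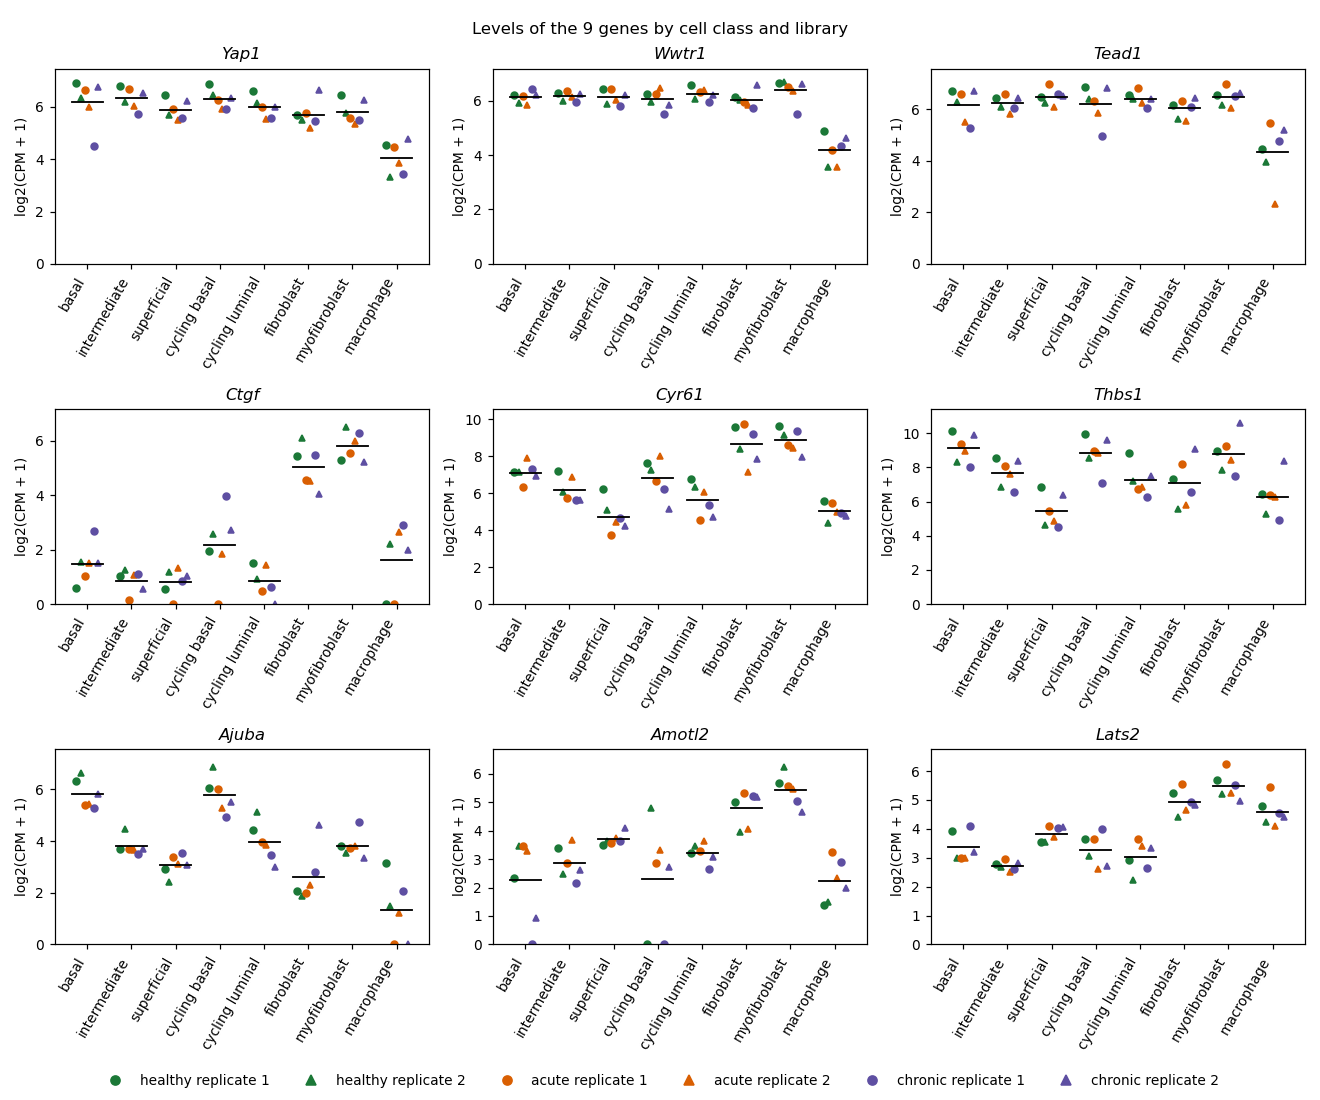
Level of each of the 9 genes by cell class, as log2(CPM + 1) on the vertical axis, which starts at 0 and differs in range between panels. Each point is 1 library coloured by condition and shaped by replicate, and the black line is the mean of the log values. Ctgf is at most 5.38 CPM in the non-cycling urothelial layers and lies between 15.6 and 89.7 CPM in fibroblasts and myofibroblasts. Its 14.8 CPM in the cycling basal cells of chronic 1 came from 20 cells, in a class with 7 Ctgf UMIs over all libraries. Yap1, Wwtr1 and Tead1 are present in all classes of urothelium and mesenchyme.

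The targets Ctgf and Cyr61 and the regulators Amotl2 and Lats2 were higher in mesenchymal cells (fibroblasts and myofibroblasts together) than in urothelial cells (the 3 non-cycling layers together) in 6 of 6 libraries, and their ranges did not overlap. Yap1 and Ajuba were lower in mesenchymal cells. In all, 4 of the 9 genes were called higher and 2 lower, where 31.9% of all 13936 genes tested were called higher and 37% lower. The median log2 fold change was 0.41 over the 9 genes and -0.09 over all genes tested.

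Ctgf (chr10:24595442-24598683), which encodes connective tissue growth factor, a secreted matricellular protein, had 39.7, 72.6, 31.0, 55.5, 45.5 and 27.4 CPM in mesenchymal cells. In urothelial cells it had 0.985, 1.42, 0.168, 1.21, 1.12 and 0.658 CPM. Every mesenchymal value was thus far above every urothelial value, by 47.4-fold in the fit (log2 fold change 5.57, SE 0.219, edgeR adjusted p = 1.2e-08). After each cell was thinned to 2000 UMIs, a median of 8.18% of myofibroblasts (5.21% to 15.2% over libraries) and 5.82% of fibroblasts (2.86% to 10.7%) had a Ctgf UMI, against 0.188% of intermediate cells (0.03% to 0.308%) and 0.24% of macrophages (0% to 1.02%). The median intermediate share did not exceed that of macrophages and is not read as expression. Macrophages held more mesenchymal marker RNA than urothelial cells did (below), so this comparison cannot decide whether intermediate cells express Ctgf. By library the comparison was uneven, since macrophages had 0 CPM of Ctgf in healthy 1 and acute 1, where intermediate cells had 1.06 and 0.116 CPM. Without thinning the medians were 13.5%, 6.73%, 0.546% and 0.966%, at 3774, 2343, 4555 and 2746.5 median UMIs, and thinning left out 3.93%, 33.3%, 1.83% and 18% of these cells as too shallow.

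The summed level of 8 mesenchymal markers in urothelial cells was 0.577% to 2.06% of that in mesenchymal cells of the same library, and Ctgf stood at 0.541% to 2.48%. The urothelial level of Cyr61 was 6.76% to 34.5% of its mesenchymal level, that of Lats2 14.8% to 27.7% and that of Amotl2 13.1% to 30.4%. The percentages of these 3 genes exceeded that of the markers in 6 of 6 libraries, and that of Ctgf did so in 5 of 6, the exception being acute 1 (0.541% against 0.577%). In macrophages, where the markers stood at 3.98% to 11.2%, Lats2 was at 46.2% to 76.2%, above its urothelial percentage in every library, and Amotl2 at 3.7% to 20.5%, above it in acute 1 and chronic 1.

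Cyr61 (chr3:145646976-145649981), a matricellular relative of Ctgf, had 789, 385, 699, 315, 588 and 241 CPM in mesenchymal and 141, 69.9, 47.2, 109, 46.1 and 45.7 CPM in urothelial cells, 6.47-fold more (SE of log2 fold change 0.293, edgeR adjusted p = 1.4e-05). The lowest mesenchymal library exceeded the highest urothelial one. Lats2 (chr14:57689662-57758388), the kinase that phosphorylates YAP and is itself a YAP target, had 23.6 to 56.2 CPM in mesenchymal and 5.76 to 8.71 CPM in urothelial cells (5.08-fold, SE 0.157, edgeR adjusted p = 3.6e-07). Amotl2 (chr9:102716672-102733418), which encodes an angiomotin that holds YAP in the cytoplasm, had 27.8 to 42.8 against 4.68 to 11.6 CPM (4.74-fold, SE 0.159, edgeR adjusted p = 5.7e-07).

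Yap1 was lower in mesenchymal cells in 6 of 6 libraries (log2 fold change -0.57, SE 0.113, edgeR adjusted p = 0.0011), with overlapping ranges. Ajuba (chr14:54567472-54577558), an adaptor that binds LATS kinases at cell junctions, was 1.83-fold lower in 5 of 6 libraries (edgeR adjusted p = 0.019). Wwtr1 and Tead1 had log2 fold changes of 0.05 and -0.10 (edgeR adjusted p = 0.737 and 0.427). Thbs1 had 0.41 (adjusted p = 0.172), and without healthy 2 it was called at 0.61 (adjusted p = 0.0493). Sums of 22 immediate-early genes were 11066 to 33777 CPM over fibroblasts and myofibroblasts and 5277 to 19971 CPM over the urothelial layers, and their part in the result was not tested.

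Among the layers of the urothelium, Thbs1, Cyr61 and Ajuba stepped down from basal through intermediate to superficial cells, while Lats2 and Amotl2 were higher in superficial than in intermediate cells. Between basal and intermediate cells, Thbs1, Cyr61, Ajuba and Lats2 were lower and Wwtr1 was higher in intermediate cells. That is 4 of 9 genes called lower and 1 higher, where 18.1% of all 12794 genes were called lower and 19.3% higher. Between intermediate and superficial cells, 4 of 9 were lower and 3 higher in superficial cells, where the shares of all 12894 genes were 27.2% and 26%. The median log2 fold change of the 9 genes was -0.53 in the first comparison and 0.05 in the second, against 0.01 and -0.01 over all genes tested.

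Thbs1 (chr2:118111876-118127133) encodes thrombospondin, a secreted glycoprotein that activates TGF-beta. It had 1129, 316, 662, 488, 258 and 940 CPM in basal cells and 367, 116, 268, 198, 92.0 and 324 CPM in intermediate cells. In superficial cells it had 113, 23.9, 42.97, 27.9, 21.7 and 82.9 CPM. Each library followed the same order of layers, whereas the layers' ranges over libraries overlapped, with healthy 1, acute 1 and chronic 2 high and healthy 2 and chronic 1 low in each layer. Thbs1 was 2.53-fold lower in intermediate than in basal cells (log2 fold change -1.34, SE 0.0557, edgeR adjusted p = 5.9e-19). It was a further 4.44-fold lower in superficial cells (log2 fold change -2.15, SE 0.113, edgeR adjusted p = 1.7e-12). In macrophages, at 29.1 to 334 CPM, chronic 1 and healthy 2 were also the lowest libraries and chronic 2 the highest.

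Ajuba had 78.8, 98.0, 41.2, 42.9, 37.7 and 56.2 CPM in basal cells and 12.1, 21.4, 11.95, 11.7, 10.4 and 11.9 CPM in intermediate cells. The lowest basal library was above the highest intermediate one, and the fit gave a 4.22-fold difference (log2 fold change -2.08, SE 0.107, edgeR adjusted p = 1.1e-16). In superficial cells it had 4.39 to 10.6 CPM and was 1.44-fold lower than in intermediate cells, in 5 of 6 libraries (edgeR adjusted p = 0.0079). With basal cells taken as sub-clusters chosen by marker z, an alternative added after seeing the data, that last call was lost (log2 fold change -0.31, adjusted p = 0.108). At 2000 UMIs per cell a median of 9.58% of basal and 2.69% of intermediate cells had an Ajuba UMI, against 0% of macrophages (0% to 0.592%), at 3671, 4555 and 2746.5 median UMIs. Without thinning the medians were 17.4%, 6.11% and 0.425%. NK cells had 22.5, 14.6 and 5.58 CPM of Ajuba in healthy 1, healthy 2 and acute 2 (9 UMIs in all), above intermediate cells in healthy 1 only.

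Cyr61 had 139, 143, 78.7, 239, 156 and 121 CPM in basal and 147, 65.1, 53.3, 116, 49.5 and 48.6 CPM in intermediate cells. Intermediate cells were lower in 5 of 6 libraries, the exception being healthy 1 (1.65-fold, log2 fold change -0.72, SE 0.114, edgeR adjusted p = 4.4e-06). Superficial cells had 74.6, 32.6, 12.4, 20.4, 23.8 and 17.5 CPM, lower than intermediate cells in each library (2.72-fold, SE 0.151, edgeR adjusted p = 5.5e-08). This is near the 19.8 to 47.6 CPM of macrophages. Immediate-early genes also stepped down, from 13242 to 19971 CPM in basal through 8302 to 11847 in intermediate to 5277 to 7692 CPM in superficial cells, and their part in the result was not tested.

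Ctgf could not be ordered over the layers, since no non-cycling layer exceeded 5.38 CPM in any library. Its log2 fold changes were -0.68 (edgeR adjusted p = 0.27) between intermediate and basal and 0.11 (adjusted p = 0.835) between superficial and intermediate cells.

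Lats2 had 5.84, 5.35, 6.85, 4.75, 5.07 and 6.05 CPM in intermediate and 10.8, 10.7, 16.2, 12.1, 15.2 and 15.8 CPM in superficial cells. The ranges did not overlap (2.59-fold higher in superficial cells, log2 fold change 1.37, SE 0.12, edgeR adjusted p = 3.9e-09). Basal cells, at 6.87 to 16.1 CPM (86 UMIs in all), were above intermediate cells in 6 of 6 libraries (1.44-fold, edgeR adjusted p = 0.035). In acute 1 the values were all but equal, at 6.87 and 6.85 CPM. Leaving out acute 2, chronic 1 or healthy 1 ended that last call, with adjusted p of 0.0547, 0.057 and 0.333. It was also lost with DESeq2 (adjusted p = 0.0883), with doublets kept (0.0518) and with the stricter filter on cells (0.0529).

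Amotl2 had 10.3, 11.3, 10.7, 12.5, 11.5 and 16.2 CPM in superficial against 9.56, 4.5, 6.33, 11.6, 3.45 and 5.13 CPM in intermediate cells. It was higher in superficial cells in 6 of 6 libraries, with overlapping ranges (1.99-fold, log2 fold change 0.99, SE 0.194, edgeR adjusted p = 0.00019). Tead1 was 1.27-fold higher in superficial cells, also in 6 of 6 libraries (SE 0.0747, edgeR adjusted p = 0.00055). Yap1 was 1.29-fold lower there in 6 of 6 (log2 fold change -0.37, SE 0.0783, edgeR adjusted p = 0.00048). Wwtr1 was 1.17-fold higher in intermediate than in basal cells (edgeR adjusted p = 0.022) in 5 of 6 libraries, a call lost without acute 1 or acute 2 (adjusted p = 0.0823 and 0.122), and superficial cells differed from intermediate cells by 0.05 (adjusted p = 0.59). The call between intermediate and basal cells was also lost with DESeq2 (adjusted p = 0.0677), and its log2 fold change of 0.22 was 0.12 without TMM factors (adjusted p = 0.228) and 0.10 with basal sub-clusters chosen by marker z (adjusted p = 0.167). Yap1, Tead1 and Amotl2 differed between these 2 layers by 0.04, 0.03 and 0.11 (edgeR adjusted p from 0.726 to 0.848).

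**Figure D2:**
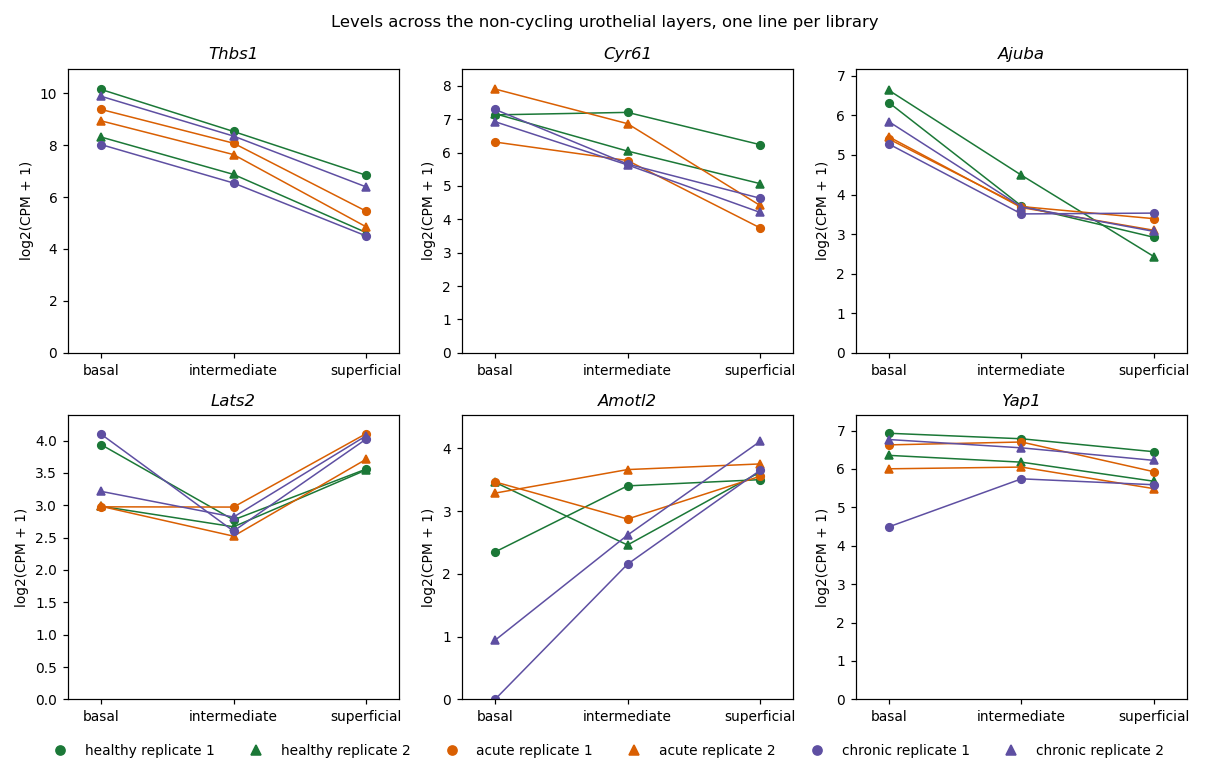
Levels of Thbs1, Cyr61, Ajuba, Lats2, Amotl2 and Yap1 along the non-cycling layers of the urothelium, as log2(CPM + 1) on the vertical axis. Each line joins the basal, intermediate and superficial cells of 1 library, coloured by condition. The lines of Thbs1 fall in all 6 libraries at every step, and those of Lats2 rise from intermediate to superficial cells in all 6.

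Cycling and non-cycling cells of the same side of the urothelium differed in few of the genes. Among basal cells, 1 of the 7 genes tested, Thbs1, was called lower in cycling cells and 0 higher, where 8.71% of all 9641 genes were called lower and 8.84% higher. The Thbs1 difference was 1.19-fold (log2 fold change -0.25, edgeR adjusted p = 0.03), lower in 5 of 6 libraries, and each library other than healthy 2 ended the call when left out. Ctgf and Amotl2 were too low to be tested. Yap1, Wwtr1, Tead1, Cyr61, Ajuba and Lats2 had log2 fold changes of -0.22, 0.08, -0.03, 0.04, 0.10 and 0.09, with edgeR adjusted p from 0.255 to 0.909. With basal sub-clusters chosen by marker z, Yap1 was called lower (log2 fold change -0.29, edgeR adjusted p = 0.0288). Chronic 1 held 20 cycling basal cells, the fewest of any library.

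Among luminal cells (intermediate and superficial), Yap1 was 1.32-fold lower in cycling cells (log2 fold change -0.40, SE 0.0783, edgeR adjusted p = 0.00085) and Cyr61 1.45-fold lower (log2 fold change -0.53, SE 0.119, edgeR adjusted p = 0.0026). Cycling luminal cells had 95.9, 70.8, 62.6, 45.9, 46.4 and 63.4 CPM of Yap1 and 107, 80.9, 22.2, 66.3, 39.7 and 25.4 CPM of Cyr61, each below non-cycling cells in 5 of 6 libraries. These are 2 of 9 genes called lower and 0 higher, where 16.3% of all 13494 genes were called lower and 13.1% higher. The test's log2 fold change for Thbs1 was -0.35 (adjusted p = 0.064), and it was called lower without healthy 1 (-0.49, adjusted p = 0.0135), without healthy 2 (-0.44, 0.0136), with cycling cells above 4 MADs (-0.71, 4.4e-06) and with basal sub-clusters chosen by marker z (-0.69, 0.0033). The log2 fold changes of Wwtr1, Tead1, Ctgf, Amotl2, Lats2 and Ajuba were 0.02, 0.05, 0.11, 0.07, 0.15 and 0.20 (edgeR adjusted p from 0.31 to 0.975). With layers assigned by sub-cluster, which leaves no basal class and so counts basal cells among the luminal ones, the Cyr61 call was lost (log2 fold change -0.24, adjusted p = 0.0943). Under the same assignment Ajuba was called higher in cycling cells (log2 fold change 0.49, edgeR adjusted p = 0.018). The summed level of 5 superficial markers was 6337 to 13089 CPM in cycling luminal cells, against 5236 to 9461 in intermediate and 15366 to 23126 CPM in superficial non-cycling cells, and the part of this layer difference in the result was not tested.

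In the mesenchyme, myofibroblasts had more of most of the genes than fibroblasts. Of the 9, 7 were called higher and 0 lower in myofibroblasts, where 10.9% of all 10862 genes were called higher and 8.42% lower. The median log2 fold change was 0.65 over the 9 genes and -0.01 over all genes tested.

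Thbs1 had 488, 231, 610, 349, 179 and 1520 CPM in myofibroblasts and 162, 45.6, 292, 54.5, 91.9 and 544 CPM in fibroblasts. It was higher in myofibroblasts in every library, although the ranges overlapped (3.36-fold, log2 fold change 1.75, SE 0.19, edgeR adjusted p = 3.7e-06). Ctgf had 38.0, 89.7, 46.1, 62.6, 76.5 and 36.6 CPM in myofibroblasts against 42.4, 67.6, 22.6, 22.1, 43.4 and 15.6 CPM in fibroblasts. Healthy 1 was the only library with more in fibroblasts (1.63-fold, log2 fold change 0.70, SE 0.201, edgeR adjusted p = 0.02), and the call was lost without acute 1 or acute 2 (adjusted p = 0.062 and 0.159). Ctgf was also among the 10 leading genes of the smooth muscle sub-cluster of 645 cells within the myofibroblast class, whose part in the result was not tested.

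Ajuba was 3.18-fold higher in myofibroblasts (log2 fold change 1.67, SE 0.348, edgeR adjusted p = 0.0022), at 9.14 to 25.5 CPM against 2.71 to 6.07 CPM in the fibroblasts of 5 libraries. Over all libraries Ajuba had 46 UMIs in fibroblasts and 198 in myofibroblasts. The fibroblast values of these 5 libraries lie within the 0 to 7.93 CPM of macrophages. The exception was chronic 2, where 70 fibroblasts had 23.5 CPM. The same fibroblasts had the highest summed level of 8 urothelial markers of any fibroblast sum, 7176 CPM against 1065 to 4541 CPM, and its part in the result was not tested. The highest myofibroblast value, 25.5 CPM in chronic 1, came from 64 cells that likewise had the highest urothelial sum of any myofibroblast sum, 5702 CPM against 894 to 3338 CPM. Without chronic 2 the log2 fold change was 1.94 (edgeR adjusted p = 6.79e-05), and with doublets kept 1.01 (adjusted p = 0.0176).

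Among the regulators, Lats2 had 51.1, 35.6, 74.5, 36.9, 44.6 and 30.5 CPM in myofibroblasts and 36.5, 20.1, 46.1, 24.1, 29.5 and 27.4 CPM in fibroblasts, more in each library (1.57-fold, SE 0.137, edgeR adjusted p = 0.0025). Amotl2 was 2.04-fold higher (log2 fold change 1.03, SE 0.25, edgeR adjusted p = 0.0071) but in only 4 of 6 libraries, since both chronic libraries had more in fibroblasts. DESeq2 did not call it (log2 fold change 0.84, adjusted p = 0.0869). Tead1 was 1.43-fold higher in 6 of 6 libraries (edgeR adjusted p = 0.0052) and Wwtr1 1.41-fold in 5 of 6 (adjusted p = 0.014). Leaving out acute 1, acute 2, healthy 1 or healthy 2 raised the adjusted p of Wwtr1 to between 0.0519 and 0.0683.

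Cyr61 and Yap1 were not called between the mesenchymal classes, with log2 fold changes of 0.28 (edgeR adjusted p = 0.438) and 0.27 (adjusted p = 0.277). Without acute 1 Cyr61 was called at 0.54 (adjusted p = 0.0498). Cyr61 varied widely over libraries within each class, from 139 CPM in acute 2 to 869 CPM in acute 1 among fibroblasts. In library order, fibroblasts had 767, 331, 869, 139, 583 and 227 CPM of Cyr61. Their immediate-early sums were 24663, 20825, 31832, 11066, 32350 and 25775 CPM. In myofibroblasts the immediate-early sum was highest in chronic 2, at 33777 CPM, where Cyr61 was lowest, at 253 CPM. The part of these sums in the spread of Cyr61 was not tested.

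**Figure D3:**
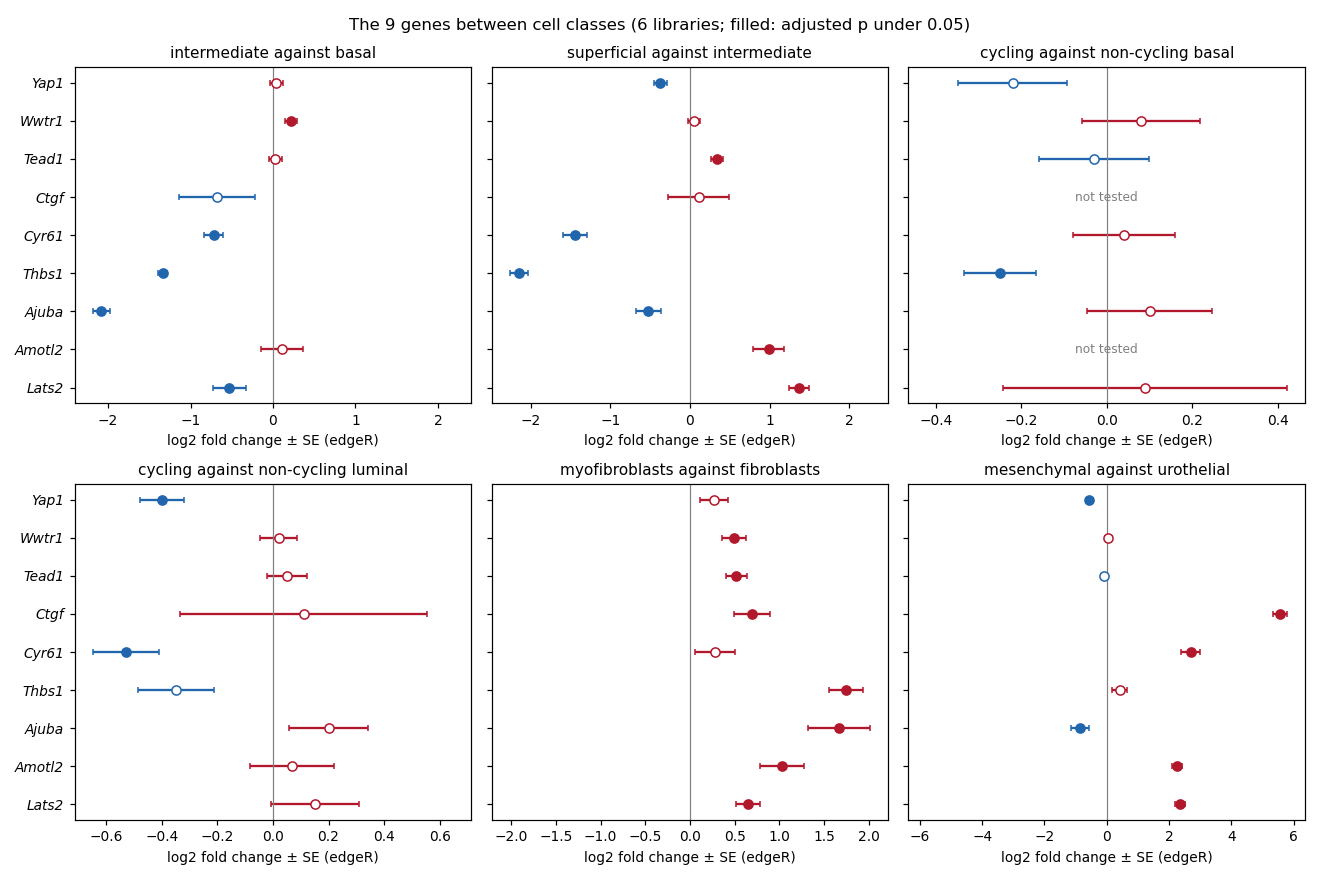
Log2 fold changes of the 9 genes in the comparisons between classes, estimated by edgeR with bars of 1 SE, on the horizontal axis, whose range differs between panels. Red points are above 0 and blue points below it, and filled points are genes called at an adjusted p under 0.05. In the mesenchymal panel Ctgf lies at 5.57, and in the myofibroblast panel 7 filled points lie above 0.

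None of the 9 genes was called between conditions in any of basal, intermediate, superficial, fibroblast or myofibroblast cells. Acute and healthy libraries gave 42 tests of a gene in a class, with 0 calls, 3 unadjusted p under 0.05 and a smallest edgeR adjusted p of 0.848. Over all genes, 0.00375% of 53298 such tests were called and 3.04% had an unadjusted p under 0.05. For chronic against healthy there were 0 calls in 42 tests, 5 unadjusted p under 0.05 and a smallest adjusted p of 0.665, against 0.00188% called and 5.51% with such a p over all genes. For acute against chronic there were 0 calls, 1 unadjusted p under 0.05 and a smallest adjusted p of 0.572, with 0% called and 5.12% with such a p over all genes. DESeq2 also gave 0 calls in each, with 3, 3 and 2 unadjusted p under 0.05 in 44, 43 and 41 tests. The injured groups share their healthy controls, and 2 libraries per group limit what could be detected.

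The genes with an unadjusted p under 0.05 show the size of difference left undecided. Ajuba in basal cells was 88.4 CPM ± 13.6 (SD, n = 2 libraries) in healthy, 42.03 ± 1.16 in acute and 46.9 ± 13.1 in chronic mucosa, with both injured groups below both healthy libraries (log2 fold changes -1.06 and -0.86, edgeR adjusted p = 1 for both). Cyr61 in superficial cells was 53.6 CPM ± 29.6 in healthy, 16.4 ± 5.63 in acute and 20.7 ± 4.47 in chronic mucosa (edgeR log2 fold changes -1.69 and -1.41, adjusted p = 0.848 and 0.954). Both healthy libraries again lay above all 4 injured ones, healthy 1 at 74.6 and healthy 2 at 32.6 CPM.

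Ctgf in fibroblasts was 55.0 CPM ± 17.9 in healthy and 22.3 ± 0.314 in acute mucosa (log2 fold change -1.27, edgeR adjusted p = 1), while the chronic libraries had 43.4 and 15.6 CPM. Amotl2 in myofibroblasts was 62.3 CPM ± 16.4 in healthy and 28.1 ± 5.32 in chronic mucosa (log2 fold change -1.21, edgeR adjusted p = 0.687). The urothelial marker sums of the fibroblasts differed with condition too, from 1065 and 2818 CPM in healthy through 1402 and 1994 in acute to 4541 and 7176 CPM in chronic libraries. The fibroblasts' own 5 markers summed to 9938 and 8979 CPM in healthy, 5062 and 6424 in acute and 6609 and 1345 CPM in chronic libraries. In myofibroblasts the urothelial sums were 952 and 3014 CPM in healthy, 894 and 1698 in acute and 5702 and 3338 CPM in chronic libraries. The chronic myofibroblast values came from 64 and 96 cells. The part of any of these sums in the values was not tested. The other unadjusted p under 0.05 were those of Amotl2 in basal cells, at 0 and 0.921 CPM in the chronic libraries and 4.09 to 10.0 CPM in the others, and of Ajuba in fibroblasts, higher in chronic libraries (1.75), with the high value of chronic 2 given above. Yap1 and Wwtr1 had no unadjusted p under 0.05 in any of these comparisons.

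**Figure D4:**
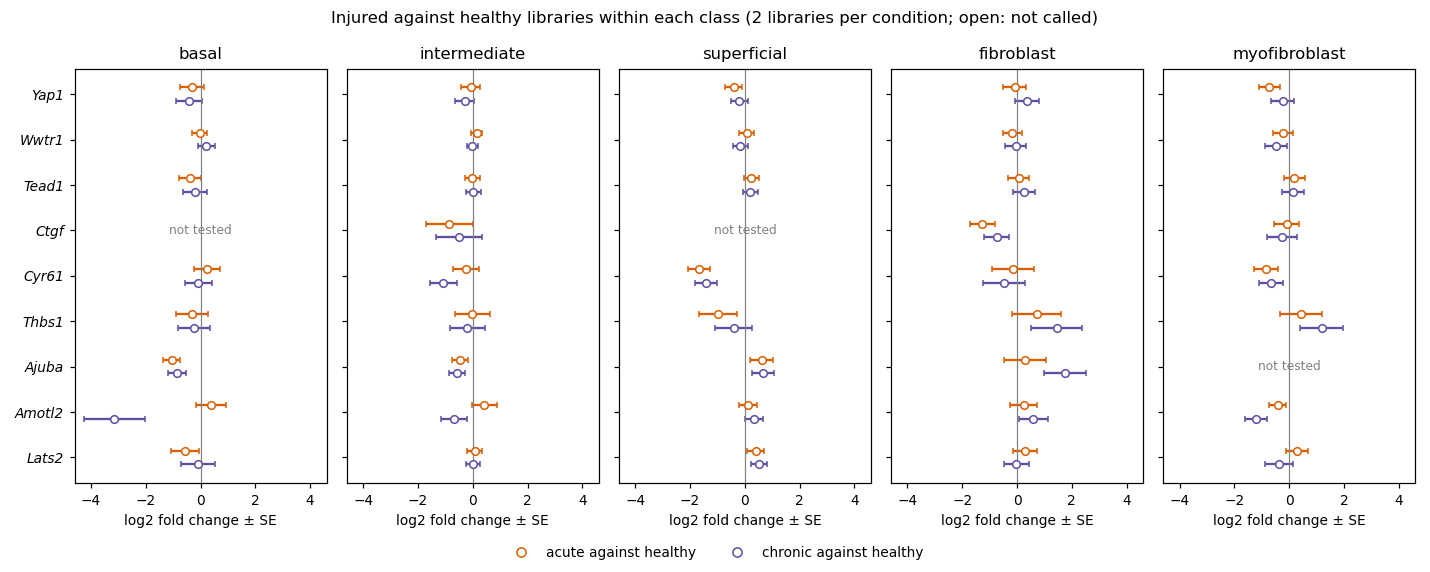
Log2 fold changes of the 9 genes in acute and in chronic against healthy libraries, on the horizontal axis, in 1 panel for each of 5 classes. Points are edgeR estimates with bars of 1 SE, and open points, which are all of them, were not called.

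Whether the difference between classes changed with injury was tested as an interaction. Of 36 tests 0 were called by edgeR, with 6 unadjusted p under 0.05 and a smallest adjusted p of 0.441 (DESeq2 gave 0 calls and 4 unadjusted p under 0.05), where 0.0211% of 47312 tests over all genes were called and 4.44% had such a p. The smallest adjusted p was that of Cyr61 in chronic injury, whose difference of intermediate from basal cells moved by a log2 fold change of -0.81 (SE 0.245). It rests on healthy 1, where intermediate cells were not below basal cells. Without healthy 2 this change was -1.44 and called (adjusted p = 1.81e-08), and without healthy 1 it was -0.21 (adjusted p = 0.994). Without acute 1 it was -0.84 and called (adjusted p = 0.0325). With basal sub-clusters chosen by marker z it was -0.28 (edgeR adjusted p = 0.996). The change of the same difference in acute injury was -0.31 (adjusted p = 1) with all libraries, and -0.93 and called without healthy 2 (adjusted p = 0.000135). The Ctgf difference of myofibroblasts from fibroblasts moved by 1.25 (SE 0.333) in acute injury, with an edgeR adjusted p of 0.686.

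Other genes of the pathway were taken from 3 lists. Beyond the 9 genes, these gave 19 kinases and adaptors, 4 effectors and partners and 17 YAP and TAZ targets found in all libraries. Tead4, Vgll1 and Ankrd1 were listed but not found in all libraries, and Ptpn14 counts both as an adaptor and as a target. Of the 17 other targets 10 were called lower and 2 higher in intermediate than in basal cells, and 11 lower and 2 higher in superficial than in intermediate cells. The shares of all genes tested were 18.1% lower and 19.3% higher in the first of these comparisons and 27.2% and 26% in the second. Igfbp3, an insulin-like growth factor binding protein, fell from 59.5 CPM in basal to 19.7 CPM in intermediate cells (log2 fold change -1.56, SE 0.0928, edgeR adjusted p = 4.9e-15). Crim1, a transmembrane protein that binds bone morphogenetic proteins, fell from 42.8 CPM in intermediate to 14.6 CPM in superficial cells (-1.42, edgeR adjusted p = 1.5e-10), and F3, tissue factor, from 97.4 to 23.5 CPM (-2.10, adjusted p = 1.4e-10). The exceptions included F3 and Myof, called higher in intermediate than in basal cells, and Asap1 and Dock5, called higher in superficial cells. The targets' median log2 fold changes were -0.69 and -0.72, against 0.01 and -0.01 over all genes tested.

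Of the 4 partners 2 were called higher and 1, Vgll4, lower in superficial than in intermediate cells, where 26% of all genes were higher and 27.2% lower. The TEAD factor Tead2 and the cofactor Vgll3 rose, with Tead2 at 42.2 CPM against 12.8 CPM in intermediate cells (log2 fold change 1.82, SE 0.0789, edgeR adjusted p = 9.1e-14) and Vgll3 at 46.9 against 13.5 CPM (1.88, adjusted p = 7.8e-13). Both were higher in 6 of 6 libraries. Of the 18 kinases and adaptors tested, 8 were lower and 2 higher in superficial than in intermediate cells, beside the same shares of all genes. Wwc1, the scaffold KIBRA, rose from 49.8 to 98.9 CPM (log2 fold change 1.08, edgeR adjusted p = 6.7e-09), and Amotl1, an angiomotin like Amotl2, fell from 45.6 to 15.9 CPM (-1.50, adjusted p = 4.4e-10).

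Between mesenchymal and urothelial cells the other targets were split, 8 higher and 4 lower of 17, where 31.9% of all genes were called higher and 37% lower. Ccdc80, Foxf2 and Axl had log2 fold changes of 6.08, 5.77 and 5.63, as large as that of Ctgf, and Myof, a membrane repair protein, had -1.58 (edgeR adjusted p = 2.9e-06). In myofibroblasts 4 of the 17 targets were higher and 3 lower than in fibroblasts (10.9% and 8.42% of all genes), F3 at 199 against 40.1 CPM among the first (2.48, edgeR adjusted p = 1e-08) and Ccdc80 at 121 against 288 CPM among the second (-1.24, adjusted p = 2.3e-05). In cycling basal cells 1 target, Axl, was higher and 3 were lower of 12 tested (8.84% and 8.71% of all genes), and in cycling luminal cells 1 was higher and 3 were lower of 17 (13.1% and 16.3%). None of the genes on these lists was called between conditions or in the interactions.

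Over 48 profiles, the sums of 8 classes in 6 libraries, the gene most like Ctgf among 8857 was Trp53i13 (Pearson's r = 0.938), followed by Pcolce, an enhancer of procollagen processing (0.935), and Dkk3, a secreted protein of the Dickkopf family (0.925). Cyr61 was most like Pdpn, podoplanin (0.906), Thbs1 like Gm12840 (0.857), Ajuba like Fam101b (0.883), Amotl2 like Klhdc8b (0.824) and Lats2 like Rsu1 (0.87). For Yap1 it was Ptgfrn (0.904), for Wwtr1 Cbx6 (0.852) and for Tead1 Nckap1 (0.842). Profiles of 1 library share their depth, and profiles of 1 class their cell type, so that these values are descriptions.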

How the data were processed

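Libraries were prepared with the 10x Genomics 3' v2 chemistry. With Cell Ranger and the mm10 build the authors made UMI counts, and deposited these raw counts unnormalized as a table for each library. Genes were limited to the 14338 of 14450 listed in all tables that were neither mitochondrial nor ribosomal, and 1 table stopped in its last line. The study's own limits on cells were applied, more than 500 genes and less than 10% mitochondrial UMIs. The highest Scrublet scores (scanpy 1.11.5) were removed as doublets at 0.8% per 1000 cells, and so were clusters in which over 33% of the cells were called. Libraries were normalized with sctransform 0.4.2 and integrated by reciprocal principal components in Seurat 5.3.0 (R 4.3.3) over 3000 features that held neither the 9 genes nor the pathway lists. Leiden clusters (leidenalg 0.10.2, 20 neighbors, 30 components, resolution 0.8, Python 3.11.15) were named from markers, and 4 mesenchymal sub-clusters without a name were left out. Superficial sub-clusters had a mean marker z over 1 and were not mostly cycling. Cells were cycling above the median plus 2 MADs of the S or G2/M score.

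Within a library the UMIs of each class were added up where it held 20 cells or more. The quasi-likelihood test of edgeR 4.0.16 was run on these sums after filterByExpr and with TMM factors, with the library as a block between classes and without a block between conditions, all 6 libraries sharing 1 estimate of the spread. Each SE was derived from the edgeR fit, as the absolute log2 fold change divided by the square root of the F statistic. DESeq2 1.42.0 was an alternative. Scripts were tested on simulated data. Every one of the 9 genes is named in each comparison between classes. From the other lists at most 4 genes per list and comparison are named, those with the largest changes among called genes with a mean of at least 20 CPM, and exceptions named beside a count were chosen after their values were seen. Genes like each of the 9 were sought among those with a mean of at least 10 CPM. The genes and lists were chosen with earlier results of these data known. Gene positions are those of GENCODE vM21 (GRCm38) and promoters those of RefSeq.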

Additional observations from a re-analysis of the deposited data

Results flagged for a closer look

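In 5 cases 1 library's difference between classes, as log2(CPM + 1) within the library, stood apart from those of the other 5, with a gap to its neighbour above the 95% critical share of the range (0.625 for 6 samples). Chance flags about 1 in 20 such groups. The rule was applied to every gene tested in each class comparison, 7 for cycling basal cells and 9 in the others. For Yap1 the difference of intermediate from basal cells was 1.25 in chronic 1 and -0.22 to 0.07 in the others, and that of cycling from non-cycling basal cells was 1.42 in chronic 1 and -0.44 to 0.08 in the others. For Wwtr1 the difference of intermediate from basal cells was -0.50 (-0.501) in chronic 1 and 0.06 to 0.31 in the others. Chronic 1 held 66 non-cycling and 20 cycling basal cells, and both Yap1 differences use its same non-cycling basal value, 21.5 CPM. For Ajuba the difference of myofibroblasts from fibroblasts was -1.27 in chronic 2, which held 70 fibroblasts, and 1.52 to 1.91 in the others. Fibroblasts had 46 Ajuba UMIs over all libraries. For Amotl2 the difference of cycling from non-cycling luminal cells was 0.92 (0.918) in healthy 2 and -0.18 to 0.22 in the others.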

How the results depend on the processing

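Of the 28 calls between classes, 13 held under each of the alternatives run, and in 442 recomputed values 401 kept direction and call, 41 lost the call and 0 reversed. More calls were lost without the library block (14 of 28) than under any other single alternative. Without the block the calls were 2 between intermediate and basal cells (5 with it), 5 between superficial and intermediate cells (7, with Tead1 and Yap1 lost), 0 in cycling basal cells (1), 0 in cycling luminal cells (2) and 1 between myofibroblasts and fibroblasts (7). DESeq2 gave 3 calls between intermediate and basal cells and 0 in cycling basal cells. In cycling basal cells there were also 0 calls without TMM factors and 2 with basal sub-clusters chosen by marker z, both added after seeing the data. Without a filter on low counts 1 interaction was called (0 with it). Leaving out 1 library at a time gave 3 to 5 calls between intermediate and basal cells, lowest without acute 2, and 7 between superficial and intermediate cells. It gave 0 to 1 in cycling basal cells, 2 to 3 in cycling luminal cells, 5 to 7 between myofibroblasts and fibroblasts, 6 to 7 between mesenchymal and urothelial cells, 0 between conditions and 0 to 2 in the interactions, where healthy 2 (2 calls) or acute 1 (1 call) was the library left out. The causes of these changes were not tested. Assigning whole sub-clusters to layers by majority left no basal sub-cluster, so that this alternative gave no value for basal cells. Conditions kept 0 calls with the replicate number as a block. The labels do not say that a number pairs libraries. Correlations of same-numbered deviations were 0.21 to 0.38 between healthy and acute libraries in all 5 classes and -0.46 to 0.09 between either and chronic libraries, over 2 libraries per condition. With 2 libraries per condition, and 66 basal cells in chronic 1, the precision of values in low genes such as Ajuba is limited.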

Other observations

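The vascular cells were in no comparison. In endothelial cells of the 5 libraries with at least 20 of them, Lats2 had 26.2 to 81.8 CPM, Amotl2 17.5 to 72.2 CPM and Cyr61 61.2 to 528 CPM, ranges that overlap those of myofibroblasts for each gene. The lowest value of each was that of chronic 2, whose 25 cells had 10818 CPM of urothelial markers (1665 to 8664 CPM in the others) and 1328 CPM of endothelial markers (2818 to 4991 CPM), and the part of these in the values was not tested. Ctgf was uneven there, at 4.81, 22.0, 52.5, 0 and 52.4 CPM in healthy 1, acute 1, acute 2, chronic 1 and chronic 2, in 25 to 319 cells. The mural cells of acute 1 and acute 2, the libraries with enough of them, had 464 and 332 CPM of Thbs1 and 9.87 and 16.4 CPM of Ctgf.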
